A study of Homo sapiens with 12 samples.

Results

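Sprouty (SPRY), SPRED and ETV genes, together with PHLDA1 and IER3, are transcribed in response to the kinase ERK, and their transcripts are widely read as a measure of its output. A set of 10 such genes (SPRY1, SPRY2, SPRY4, SPRED1, SPRED2, ETV1, ETV4, ETV5, PHLDA1 and IER3) was chosen by name out of the 26485 genes listed, and all 10 passed the filter on low values. They were followed in BT474, an established HER2-amplified human breast cancer cell line, during continuous exposure to lapatinib, a small molecule that inhibits the HER2 and EGFR kinases. Each of 4 groups held 3 RNA-sequencing libraries. Control cells were taken at day 0. Under 1 µM lapatinib, drug-tolerant persisters (DTP) followed at day 9, the regrowing, expanded persisters (DTEP) at month 6, and long-term resistant cells (LR) at month 9. The labels name 1 µM lapatinib for Control as well, and these libraries were read as untreated from their title and day. The study describes its libraries both as technical replicates and as parallel plates of the same line, so SDs (n = 3 libraries throughout) and p-values measure only the spread between these libraries.

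Growth factor receptors such as HER2 activate RAS, the RAF and MEK kinases and then ERK, which phosphorylates transcription factors and relieves repression by Capicua (CIC). Many of the genes switched on in this way restrain the same pathway. Sprouty proteins act at the level of adaptors and RAF, and SPRED proteins bring neurofibromin (NF1), which inactivates RAS, to the plasma membrane. ETV1, ETV4 and ETV5 form the PEA3 group of ETS transcription factors, which carry the signal to further genes. PHLDA1 and IER3 are rapidly induced genes of small regulatory proteins.

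The libraries held between 16383363 and 25030482 assigned reads, so that 1 read was worth 0.0412 to 0.0576 normalised read counts, that is, reads scaled to the library size after adjustment by a trimmed-mean (TMM) factor. A library with 0 reads allowed a level of up to 3 reads, or 0.124 to 0.173 normalised read counts, and this floor covers counting error only. DTEP replicate 3 stood apart from its group. Its correlation with the other DTEP libraries across genes was 0.934 and 0.962, against 0.982 between those libraries, and calls that turned on it are given with and without it. In RNA from whole cultures, fewer cells of a kind and less RNA per cell cannot be told apart.

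Upstream sequence was available in RefSeq (GRCh38.p14) for 7 of the 10 genes, namely SPRY1, SPRY2, SPRY4, SPRED1, SPRED2, ETV1 and PHLDA1. The 250 bases before each annotated start were searched on both strands for the ETS octamers CCGGAAGT and CAGGAAGT and for the Capicua octamers TGAATGAA and TGAATGGA. Among these genes a match was found in a single window, at ETV1, where TGAATGGA began 125 bases before the start. SPRY1, SPRY2, SPRED2 and ETV1 had several annotated starts. ETV1 had the most windows and so the most places for a match. Any of the 4 octamers was present in 7.98% of all 35116 windows, and TGAATGGA in 0.832% of them. By gene, 9.65% of 27305 genes had any of the 4 in a window. A match at ETV1 alone among 7 genes is therefore not read as a result about the members. The shorter core GGAA, in either orientation, was present in 92.7% of windows and distinguishes few genes. The ETV1 window that held the match is shown. A window each of SPRED1 and SPRED2 is shown because the transcripts of these relatives changed together in the results that follow. A further SPRED2 window, chr2:65366779-65367028, held no octamer and is not shown. Capitals mark TGAATGGA in ETV1 and GGAA or TTCC in the SPRED genes, each sequence is written 5′ to 3′ on the strand of its gene, and bases of annotated exons were left out. A match is a description of the letters and not a measured binding site.
ETV1, chr7:13991426-13991675, minus strand: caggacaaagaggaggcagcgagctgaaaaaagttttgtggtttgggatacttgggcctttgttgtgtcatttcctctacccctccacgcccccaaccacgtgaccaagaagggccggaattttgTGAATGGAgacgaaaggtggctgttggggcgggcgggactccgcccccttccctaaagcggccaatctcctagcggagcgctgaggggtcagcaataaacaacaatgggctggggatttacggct
SPRED1, chr15:38252586-38252835, plus strand: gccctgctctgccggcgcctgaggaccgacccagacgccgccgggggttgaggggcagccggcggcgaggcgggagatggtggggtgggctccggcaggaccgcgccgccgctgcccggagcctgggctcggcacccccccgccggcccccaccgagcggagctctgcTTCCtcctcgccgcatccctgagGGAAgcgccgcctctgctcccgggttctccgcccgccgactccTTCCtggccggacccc
SPRED2, chr2:65432638-65432849, minus strand: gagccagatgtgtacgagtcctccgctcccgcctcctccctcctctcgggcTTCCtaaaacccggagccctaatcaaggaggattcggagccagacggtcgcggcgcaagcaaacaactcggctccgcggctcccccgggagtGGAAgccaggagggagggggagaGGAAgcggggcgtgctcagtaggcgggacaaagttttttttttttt

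To follow ERK target genes from the sensitive to the resistant state, each group was set against the one before it. From Control to DTP, SPRY4, SPRED1, SPRED2, ETV4 and ETV5 fell, and all 5 also passed the stricter threshold of an absolute log2 change above 2. The share of all 13794 genes tested that fell was 28.8%, and the share past the stricter threshold in either direction was 4.92%. The other 5 members, SPRY1, SPRY2, ETV1, PHLDA1 and IER3, did not pass the test. No member rose, by limma, by edgeR, by DESeq2 or at an unadjusted p below 0.05 (0 of 10 each). By limma at an adjusted p, 25.2% of all genes rose, and this share was not counted in the other ways. The median log2 change of the members was -1.4, against -0.01 over all genes tested.

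**Figure D1:**
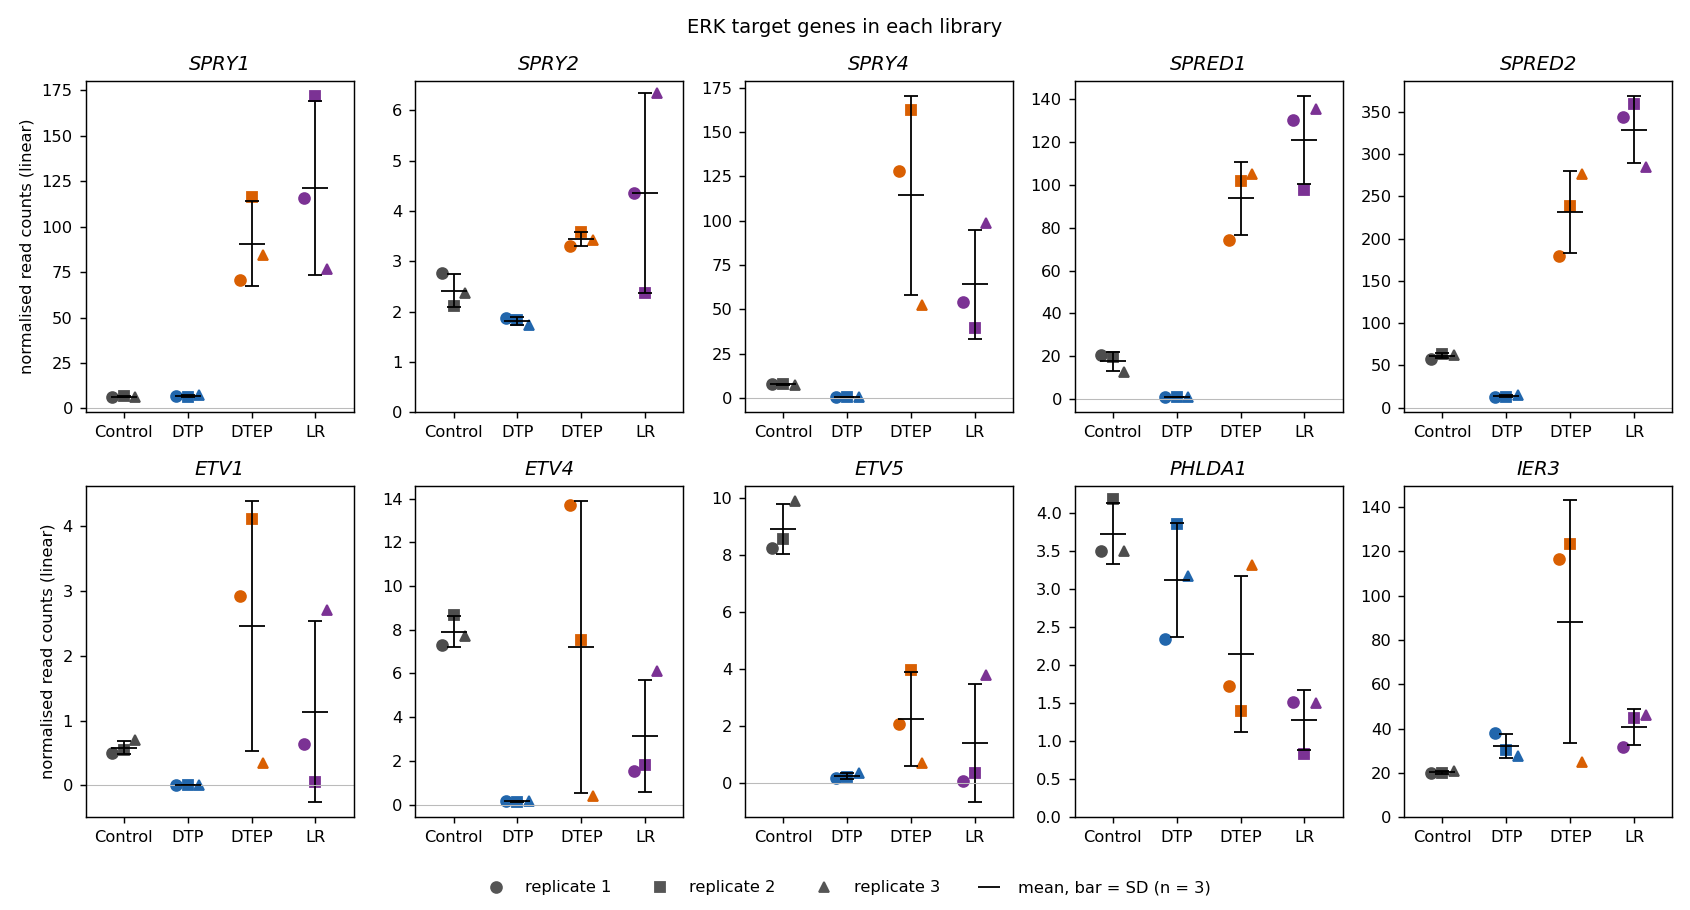
Normalised read counts (linear axis, own scale per gene) of the 10 genes in each of the 12 libraries, with points for libraries and the line and bar for the mean and SD of 3 libraries. SPRY4, SPRED1, SPRED2, ETV4 and ETV5 were lower in every DTP library than in any Control library, SPRY1, SPRY4, SPRED1 and SPRED2 stood far above Control in DTEP and LR, and the ETV genes and IER3 were spread widely within DTEP.

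In DTEP against DTP cells the members moved the other way. A total of 9 of 10 rose, PHLDA1 being the exception, and without ETV1, which reached the filter's minimum of 1 only in DTEP and LR libraries, 8 of 9 did. Of these, SPRY1, SPRY4, SPRED1, SPRED2 and ETV4 also passed the stricter threshold. Of all genes tested, 35.7% rose, 32.6% fell and 15.2% passed the stricter threshold. The median log2 change was 1.94 for the members and 0.08 for all genes. No member fell by limma, edgeR or DESeq2, or at an unadjusted p below 0.05 (0 of 10 each). In LR against DTEP cells, 0 of 10 members passed the limma test in either direction, as against 3.04% of all genes that rose, 4.31% that fell and 0.681% past the stricter threshold. At an unadjusted p below 0.05, 1 member was higher (SPRED2) and 0 were lower. For the same comparison, edgeR called 0 members and DESeq2 called 1, again SPRED2. Shares of all genes are by limma at an adjusted p and were not counted at an unadjusted p, by edgeR or by DESeq2. These comparisons share the DTP or the DTEP libraries, so a high or low value there enters both.

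**Figure D2:**
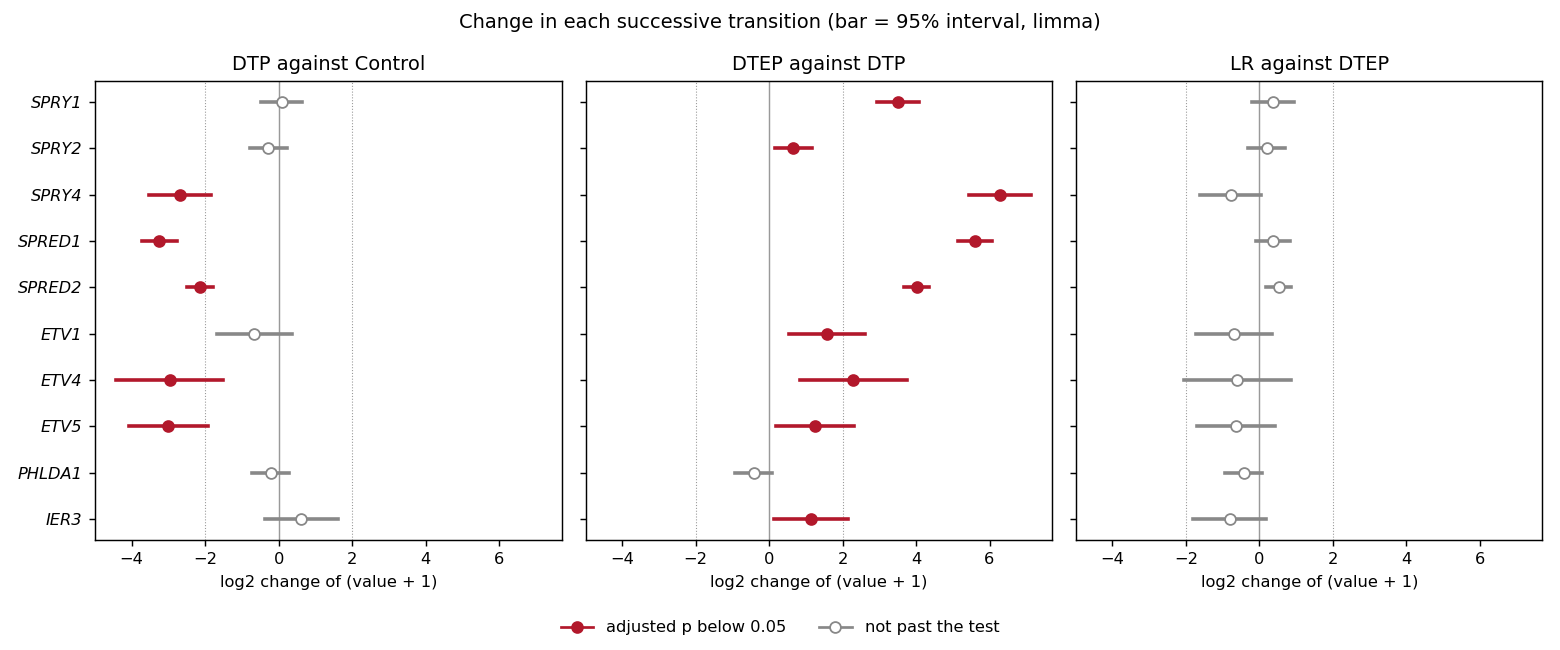
Log2 change of (normalised read count + 1) of each gene in the 3 successive transitions, with 95% intervals from limma. Filled points have an adjusted p below 0.05 and dotted lines mark a log2 change of 2 in either direction. SPRY4 rose by 6.29 and SPRED1 by 5.61 from DTP to DTEP, while none of the 10 intervals in the right panel belongs to a gene past the adjusted threshold.

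Among the feedback inhibitors, SPRY4 (chr5:142310430-142325021, minus strand) had the widest range. Its normalised read count was 7.91, 7.72 and 7.17 in the Control libraries and 0.418, 0.296 and 0.288 in DTP, where it rested on 8, 6 and 5 reads. In DTEP it was 128, 162 and 52.7, and in LR 54.2, 39.4 and 98.7. Every DTP library lay below every Control library, every DTEP and LR library lay above both groups, and DTEP and LR overlapped. From Control to DTP the mean level fell 22.8-fold (log2 change -2.69 ± 0.38 SE, adjusted p = 0.000139). From DTP to DTEP it rose 342-fold (log2 change 6.29, 95% interval 5.45 to 7.12, adjusted p = 6.62e-08). In LR it remained 8.44-fold above Control (adjusted p = 4.66e-05).

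SPRED1 (chr15:38252836-38357249, plus strand), the relative whose loss in the germline causes Legius syndrome, followed a like course. It was at 20.8, 19.5 and 12.5 normalised read counts in Control and at 0.835, 0.888 and 1.04 in DTP. The DTEP libraries had 74.2, 102 and 105, and the LR libraries 130, 97.4 and 135. The groups separated fully except for DTEP and LR, which overlapped. SPRED1 fell 19.1-fold into DTP (log2 change -3.25 ± 0.22 SE, adjusted p = 6.03e-07) and rose 102-fold into DTEP (log2 change 5.61 ± 0.22 SE, adjusted p = 2.28e-09). Both DTEP and LR stood above Control, by 5.32-fold (adjusted p = 2.00e-06) and 6.87-fold (adjusted p = 4.82e-07).

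SPRED2 (chr2:65307175-65432599, minus strand) had the highest level per length of the SPRY and SPRED transcripts in all 4 groups. Control libraries had 58.0, 63.3 and 62.7 normalised read counts of it, and DTP libraries 12.7, 12.4 and 14.5. DTEP libraries had 180, 239 and 276, and LR libraries 344, 360 and 285. No groups overlapped, LR and DTEP included. SPRED2 fell 4.65-fold into DTP (log2 change -2.14 ± 0.16 SE, adjusted p = 1.33e-06) and rose 17.6-fold into DTEP (log2 change 4.02, adjusted p = 2.75e-09). The further difference of 0.52 ± 0.16 SE (log2) between LR and DTEP missed the threshold (adjusted p = 0.0605). Without DTEP replicate 3 that difference was 0.66, with an adjusted p of 0.00408. LR cells had 5.37 times the SPRED2 level of Control cells (adjusted p = 1.15e-07).

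SPRY1 (chr4:123396795-123403760, plus strand) was not among the genes that fell. It was measured at 6.49, 6.69 and 6.06 normalised read counts in Control and at 6.58, 6.37 and 7.60 in DTP, and these groups overlapped. The log2 difference between them was 0.08, with a 95% interval of -0.49 to 0.65 (adjusted p = 0.819). The level then reached 70.8, 116 and 84.4 in DTEP and 116, 172 and 76.5 in LR, above every Control and DTP library. The rise from DTP to DTEP was 13.2-fold (log2 change 3.52 ± 0.26 SE, adjusted p = 2.93e-07), and LR exceeded Control by 18.9-fold (adjusted p = 9.97e-08), the largest ratio to Control among the 10 genes in that group.

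SPRY2 (chr13:80335976-80341126, minus strand) was scarce throughout, with 30 to 131 reads per library. Its values were 2.76, 2.12 and 2.38 normalised read counts in Control and 1.88, 1.83 and 1.73 in DTP. The DTEP libraries had 3.30, 3.58 and 3.42, and those of LR 4.35, 2.38 and 6.35. Control, DTP and DTEP did not overlap with each other, while LR overlapped with Control and DTEP. The difference of -0.28 (log2) between DTP and Control did not pass the test in the fit over all libraries (adjusted p = 0.327) and did so with the 6 libraries of that comparison alone (adjusted p = 0.0319). SPRY2 rose by 0.66 ± 0.23 SE (log2) into DTEP (adjusted p = 0.0229), and 3 of 22 alternatives ended that call. Its excess in LR over Control, 0.58 (log2, adjusted p = 0.0427), was lost under 12 of 22 alternatives, among them the omission of LR replicate 3 (0.32, adjusted p = 0.181).

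Of the ETV transcription factors, ETV4 (chr17:43527846-43546340, minus strand) and ETV5 (chr3:186046314-186109089, minus strand) were nearly absent from DTP. ETV4 had 7.31, 8.70 and 7.73 normalised read counts in Control and 0.157, 0.0987 and 0.173 in DTP, the latter from 3, 2 and 3 reads. The pooled ratio of Control to DTP was 55.9, with an exact 95% counting interval of 28.1 to 130.2 (log2 change -2.96 ± 0.67 SE, adjusted p = 0.00283). In DTEP the libraries differed widely, at 13.7, 7.54 and 0.393, and in LR they had 1.52, 1.83 and 6.10. All DTEP and LR libraries were above all DTP libraries, and DTEP overlapped with Control and with LR. The rise from DTP to DTEP was 2.29 ± 0.67 SE (log2, adjusted p = 0.00884). LR was below Control in all 3 libraries without passing the test (log2 difference -1.27, adjusted p = 0.117), and passed it without DTEP replicate 3, a library that enters only the estimate of spread (adjusted p = 0.00545).

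ETV5 had 8.23, 8.53 and 9.88 normalised read counts in Control. In DTP it had 0.157, 0.197 and 0.346, from 3, 4 and 6 reads. It had 2.06, 3.95 and 0.674 in DTEP, and 0.0422, 0.332 and 3.78 in LR, where the lowest library held 1 read and the highest 78. All 9 lapatinib-treated libraries lay below all Control libraries. ETV5 fell 38.1-fold into DTP (log2 change -3.0 ± 0.49 SE, adjusted p = 0.000347) and rose by 1.26 (log2) into DTEP (adjusted p = 0.0377), a call that 6 of 22 alternatives ended. It stayed below Control in LR, by 6.42-fold (log2 change -2.39, adjusted p = 0.00108). In DTEP it was 3.99-fold below Control by limma (adjusted p = 0.00882), a call not shared by edgeR (adjusted p = 0.0791) or DESeq2 (adjusted p = 0.0513).

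ETV1 (chr7:13891229-13991425, minus strand), the gene of the TGAATGGA window, was the scarcest of the 10 genes in Control. It had 11, 10 and 15 reads there, or 0.506, 0.544 and 0.699 normalised read counts, and 0 reads in each DTP library. The mean of Control was at least 3.37-fold higher than DTP, taken against 3 reads in the DTP library where they are worth most. By limma with 1 added to each value the log2 difference was -0.66 (adjusted p = 0.257). Fits that weigh low counts otherwise passed the test, namely limma with 0.1 added (-2.76, adjusted p = 0.0289), edgeR (adjusted p = 0.0433) and DESeq2 (adjusted p = 0.00094). In DTEP the level was 2.92, 4.12 and 0.337 and in LR 0.634, 0.0553 and 2.71, the LR values resting on 15, 1 and 56 reads. DTEP overlapped with Control and LR, and its mean was at least 14.2-fold higher than DTP by the same floor (log2 change 1.58 ± 0.47 SE, adjusted p = 0.0101). Without DTEP replicate 2 that adjusted p was 0.0520. ETV1 entered the test only through DTEP replicates 1 and 2 and LR replicate 3, the libraries where it reached a value of 1, so this call is no support for a rise of the group. Against Control, DTEP differed by 0.92 (log2, adjusted p = 0.113), and by 1.5 without DTEP replicate 3 (adjusted p = 0.00462). That omission leaves in DTEP only replicates 1 and 2, which brought ETV1 into the test, so it is no support either.

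PHLDA1 (chr12:76025447-76031776, minus strand), which encodes a pleckstrin-homology-like protein, was the member that did not rise into DTEP. It was at 3.50, 4.19 and 3.49 normalised read counts in Control and at 2.35, 3.85 and 3.17 in DTP. The later groups had 1.72, 1.4 and 3.31 (DTEP) and 1.52, 0.830 and 1.5 (LR). Every DTEP and LR library was below every Control library and every LR library below every DTP library, while the other pairs of groups overlapped. None of the 3 successive steps passed the test (adjusted p = 0.468, 0.125 and 0.200). LR was 2.90-fold below Control (log2 change -1.06 ± 0.23 SE, adjusted p = 0.00167) and lower than DTP by 0.85 (log2 change -0.85, adjusted p = 0.00555). DTEP was also lower than Control (log2 change -0.63, adjusted p = 0.0335), which 9 of 22 alternatives ended. Without DTEP replicate 3 PHLDA1 was lower in DTEP than in DTP too (log2 change -0.67, adjusted p = 0.00952).

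IER3 (chr6:30743199-30744547, minus strand), an immediate-early gene linked to cell survival, was never below Control. Its normalised read count was 20.1, 19.9 and 21.1 in Control and 38.2, 30.3 and 27.8 in DTP. The DTEP libraries had 117, 123 and 25.0, and the LR libraries 31.6, 45.0 and 46.3. All 9 treated libraries exceeded all Control libraries, and the 3 treated groups overlapped with each other. The DTP to Control difference of 0.62 ± 0.46 SE (log2) did not pass the test (adjusted p = 0.275). Without DTEP replicate 3, which enters this comparison through the common estimate of spread alone, the same difference had an adjusted p of 0.00578. DTEP exceeded Control by 4.34-fold (log2 change 1.76, adjusted p = 0.00573). DTEP also exceeded DTP (log2 change 1.14, adjusted p = 0.0424), a call that 13 of 23 alternatives ended. For LR against Control the log2 difference was 0.95 (adjusted p = 0.0886), with an adjusted p of 0.0393 by edgeR, 0.0367 by DESeq2 and 0.000251 without DTEP replicate 3.

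Set against untreated cells, the members divided by direction. In DTEP against Control cells, 5 members were higher (SPRY1, SPRY4, SPRED1, SPRED2 and IER3), 2 were lower (ETV5 and PHLDA1) and 3 did not pass the test. Both lower calls were lost by edgeR (adjusted p = 0.0791 for ETV5 and 0.0947 for PHLDA1). They were also lost by limma with a pseudocount of 0.1 (adjusted p = 0.0595 and 0.054). The shares over all genes were 29.5% higher and 28.7% lower. In LR against Control cells, the higher members were SPRY1, SPRY2, SPRY4, SPRED1 and SPRED2, the lower ones were ETV5 and PHLDA1, and 3 did not pass, with 30.2% of all genes higher and 32.6% lower. In LR against DTP cells, 6 members were higher (the 5 SPRY and SPRED genes and ETV4), 1 was lower (PHLDA1) and 3 did not pass, with 36.2% of all genes higher and 35.3% lower. The ETV4 call in LR against DTP (log2 change 1.70, adjusted p = 0.0373) was ended by 6 of 22 alternatives. For the same comparison ETV1 (adjusted p = 0.107) passed under 5 alternatives, among them edgeR (adjusted p = 0.01), DESeq2 (adjusted p = 5.42e-05) and the omission of DTEP replicate 3 (adjusted p = 0.0308), and ETV5 (adjusted p = 0.278) passed by DESeq2 (adjusted p = 0.0239). ETV1 entered the test only through DTEP and LR libraries, so its passes are no support for a rise. A difference between the families of members was not tested as such, and the SPRY2 call against Control is the one that 12 of 22 alternatives ended.

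For 9 of 10 members the largest coefficient of variation was in DTEP or LR, and for SPRED1 it was in Control (25.4%). The share of all genes for which this held was not counted. Over all genes tested, the median SD of log2 values was also larger in DTEP (0.327) and LR (0.196). It was 0.0743 in Control and 0.168 in DTP, so the wider spread was not particular to the members. DTEP replicate 3 was the lowest DTEP library for 5 genes, SPRY4, ETV1, ETV4, ETV5 and IER3. The mean of the other DTEP libraries exceeded it by 2.76-fold for SPRY4, 10.4-fold for ETV1, 27.1-fold for ETV4, 4.46-fold for ETV5 and 4.8-fold for IER3. It was the highest DTEP library for SPRED1, SPRED2 and PHLDA1. Measured against the range of the LR libraries, DTEP replicate 3 lay within it for 6 of 10 genes, below it for 3 and above it for 1. DTEP replicate 1 lay above that range for 5 genes, below it for 3 and within it for 2, and DTEP replicate 2 above it for 5, below it for 1 and within it for 4. Left without DTEP replicate 3, LR against DTEP gave 4 lower members and 1 higher (SPRED2), where all libraries gave 0. The share of all genes that passed in that fit was not counted. Leaving this library out also changes the common estimate of spread, so these counts are not read as a result about the members. SPRY4 was lower by 1.26 (log2 change -1.26, adjusted p = 0.00522), ETV1 by 1.27 (log2 change -1.27, adjusted p = 0.0176), ETV4 by 1.60 (log2 change -1.60, adjusted p = 0.00516) and IER3 by 1.55 (log2 change -1.55, adjusted p = 0.000102). The ETV1 call rests on the DTEP libraries that brought this gene past the filter and is no support for a difference.

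**Figure D3:**
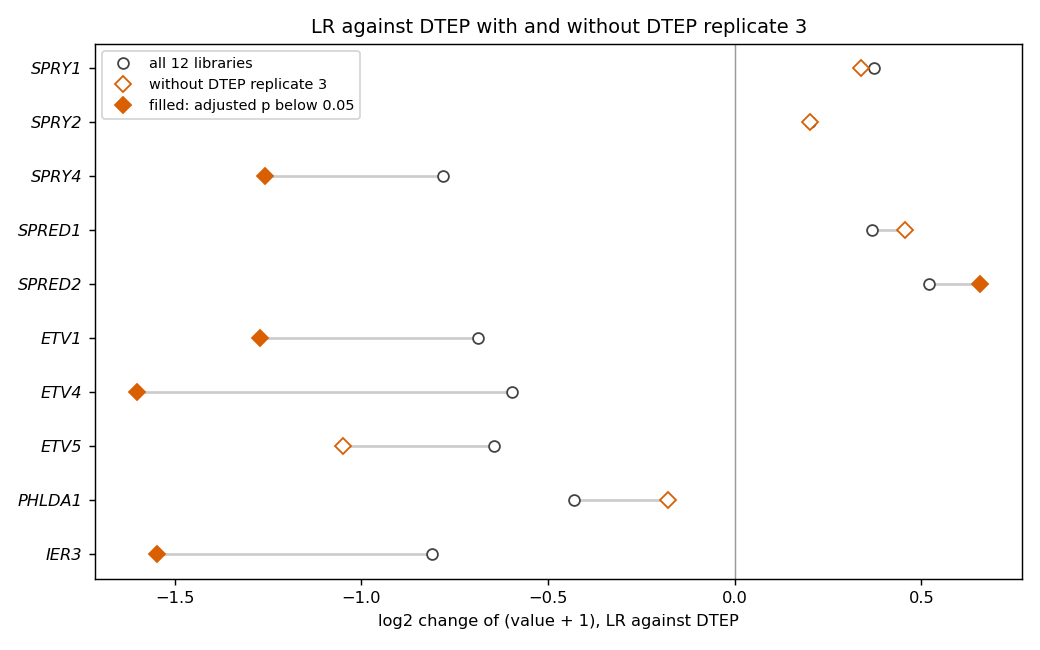
Log2 change of (normalised read count + 1) from DTEP to LR for each gene, with all 12 libraries (circles) and without DTEP replicate 3 (diamonds); filled symbols have an adjusted p below 0.05. No circle is filled, and the diamonds of SPRY4, ETV1, ETV4 and IER3, at -1.26, -1.27, -1.60 and -1.55, and that of SPRED2, at 0.66, are. ETV1 passed the filter only through DTEP and LR libraries.

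Among the LR libraries, replicate 3 had the highest value for 7 of 10 genes, which were SPRY2, SPRY4, SPRED1, ETV1, ETV4, ETV5 and IER3. The highest LR library exceeded the lowest by 4.01-fold for ETV4, against 1.39-fold for SPRED1 and 1.26-fold for SPRED2. For ETV5 and ETV1 the lowest LR library held 1 read, so that their ratios were not read as sizes. Without LR replicate 3, ETV5 was lower in LR than in DTEP (log2 change -1.32, adjusted p = 0.0420), against -0.64 (adjusted p = 0.353) with it.

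Per kilobase of exon of the canonical transcript, which allows levels of different genes to be compared, IER3 (16.5 ± 0.5 SD normalised read counts per kb) and SPRED2 (13.6 ± 0.65 SD) led in Control. ETV4 followed at 3.39, then SPRY1 at 2.46, SPRED1 at 2.42, ETV5 at 2.18, SPRY4 at 1.55, SPRY2 at 1.06, PHLDA1 at 0.630 and ETV1 at 0.0902. The spreads of SPRY1, SPRED1 and ETV5 overlapped in that order. In LR the order per kb was led by SPRED2 (72.9 ± 8.76 SD) and SPRY1 (46.6 ± 18.4 SD), with IER3 at 33.1, SPRED1 at 16.6 and SPRY4 at 13.1, and the 3 ETV genes, SPRY2 and PHLDA1 were all below 2. ETV4 ranked below SPRY1, SPRED1 and SPRY4 in LR, at 1.35 ± 1.1 SD per kb. Exon lengths came from GENCODE models, whereas the authors counted on RefSeq models. Exons of ETV4 shared 68 bases (1.93%) with DHX8 and those of ETV5 164 bases (2.84%) with DGKG, and no other member shared exon bases with a gene of the table.

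Profiles over the 12 libraries were compared by the root mean square difference of centred log2 values, a description for which no test was made. Among the members, the smallest distances were SPRY2 with ETV1 (0.586) and ETV1 with IER3 (0.610), which are of different families. The distance is not scaled to how far a gene moves. Genes that change little therefore lie close together whatever their course, and these distances are not read as likeness. SPRED1 and SPRED2 moved further, with a root mean square of 2.39 and 1.79 about their own means. SPRED1 lay 0.667 from SPRED2 and 0.677 from SPRY4, ETV4 lay 0.769 from ETV5, and SPRY2 lay 0.769 from PHLDA1. SPRY1 lay 2.18 from ETV4 and 2.55 from ETV5. Over all genes tested, the profile nearest to SPRED1 was that of the laminin receptor subunit ITGA6 (0.449), followed by BRINP3 (0.50) and PRIMA1 (0.568). ITGA6 averaged 55.3, 11.1, 350.0 and 383 normalised read counts in the 4 groups, in the order of time. Nearest to SPRED2 were DNAJC22 (0.296), SERTAD4 (0.311) and YBX2 (0.337). Nearest to SPRY4 were the transporter gene SLC16A6 (0.518), SIRPA (0.602) and ASS1 (0.608), an enzyme of arginine synthesis. SPRY1 was closest to FAM221A (0.281), RND1 (0.288) and MSRA (0.307).

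Among the ETV factors, ETV4 was closest to the lipoprotein receptor gene LRP8 (0.410), to MCM6 (0.598), a subunit of the replicative helicase, and to ACAT2 (0.602), an enzyme of lipid metabolism. MCM6 averaged 235, 33.2, 295 and 107 normalised read counts in the same order. ETV5 was closest to the sterol transfer gene STARD4 (0.439), CHRNA5 (0.510) and DRP2 (0.526). STARD4 averaged 11.4, 1.08, 3.01 and 2.29 in the 4 groups. ETV1, SPRY2, PHLDA1 and IER3 did not pass the stricter threshold in a successive transition and were not searched.

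The other genes of the pathway did not all move with the members. Of 17 further ERK output genes, 13 were tested. From Control to DTP 3 rose, 4 fell and 6 did not pass, with a median log2 change of 0.00176. From DTP to DTEP 5 rose, 4 fell and 4 did not pass, with a median of 0.44, and from DTEP to LR 0 of 13 passed by limma. Over all genes tested, 25.2% rose and 28.8% fell into DTP, and 35.7% rose and 32.6% fell into DTEP. From DTEP to LR, 3.04% rose and 4.31% fell. These shares stand beside the counts of each list below, and no list was tested against them. The genes DUSP4, DUSP5 and DUSP6 encode dual-specificity phosphatases, which dephosphorylate MAP kinases. They changed in the same directions as the SPRED genes in the steps to DTP and DTEP. DUSP4 averaged 402, 38.4, 271 and 220 normalised read counts in the 4 groups, DUSP6 18.8, 2.35, 137 and 46.0, and DUSP5 10.8, 5.49, 80.0 and 110. All 3 fell into DTP (log2 change -3.36, -2.57 and -0.86) and rose into DTEP (log2 change 2.73, 4.98 and 3.58). Against Control, DUSP4 was lower in DTEP (log2 change -0.62, adjusted p = 0.0218) and in LR (log2 change -0.88, adjusted p = 0.00279). Both SPRED genes were higher there, as was DUSP5 (log2 change 2.72 and 3.24). DUSP6 was higher in DTEP (log2 change 2.40, adjusted p = 0.0029) and did not pass in LR (log2 difference 1.17, adjusted p = 0.0876).

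DUSP6 also repeated the order of libraries seen for SPRY4, with 170, 211 and 30.5 in the DTEP replicates and 39.7, 30.2 and 68.2 in LR. DTEP replicate 3 was the lowest of its group and LR replicate 3 the highest of its own for both genes. That was not particular to them. It also held for other genes of this list, among them MYC, CCND1 and EPHA2, and not for DUSP4 or DUSP5. The receptor EPHA4 ran opposite to SPRY4 in both steps, averaging 24.2, 215, 96.5 and 57.0 normalised read counts in the 4 groups. It rose into DTP (log2 change 3.08, adjusted p = 0.000147) and fell into DTEP (log2 change -1.30, adjusted p = 0.0202). FOS rose into DTEP by 2.02 (log2, adjusted p = 0.0448), and the uridine phosphorylase gene UPP1 fell (log2 change -2.05, adjusted p = 5.14e-06).

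**Figure D4:**
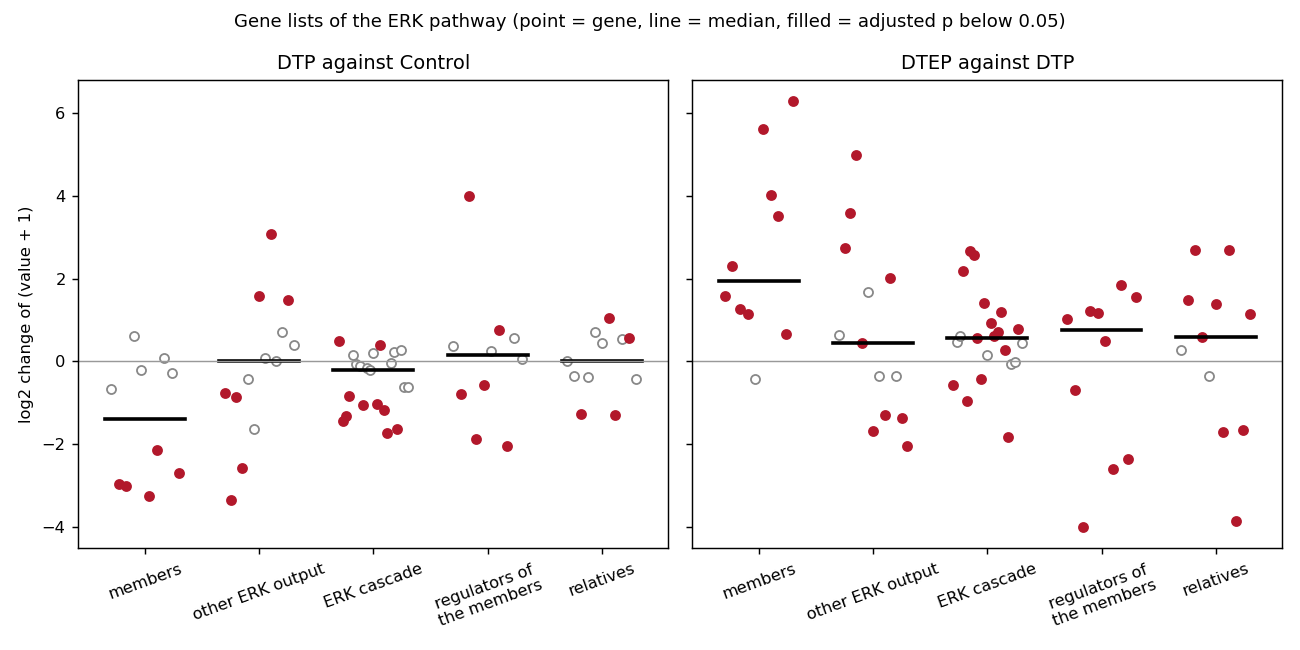
Log2 change of (normalised read count + 1) of each tested gene in the set of 10 members and in 4 lists of pathway genes, for DTP against Control (left) and DTEP against DTP (right), with a line at each median and filled points at an adjusted p below 0.05. The median of the members was -1.4 on the left and 1.94 on the right, and those of the other lists lay between -0.20 and 0.76.

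Of the 21 genes of the ERK cascade itself, from the adaptors to the ribosomal S6 kinases, all were tested. From Control to DTP 2 rose and 8 fell, from DTP to DTEP 11 rose and 4 fell, and from DTEP to LR 1 fell. Genes past the stricter threshold were GRB2, GAB1 and HRAS, all in the step to DTEP. GRB2, the adaptor that Sprouty proteins bind, averaged 175, 166, 1069 and 1067 normalised read counts in the 4 groups and rose by 2.66 (log2, adjusted p = 3.15e-08). In DTP against Control, GRB2 did not pass the test (log2 difference -0.07, adjusted p = 0.705). HRAS rose by 2.58 (log2, adjusted p = 2.62e-06) and was the gene that fell from DTEP to LR (log2 change -1.08, adjusted p = 0.0312).

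All 10 known regulators or partners of the members were tested. From Control to DTP 2 rose and 4 fell, from DTP to DTEP 6 rose and 4 fell, and from DTEP to LR 0 of 10 passed by limma. NF1, the partner of SPRED proteins, averaged 287, 70.3, 267 and 345 normalised read counts in the 4 groups. NF1 fell into DTP (log2 change -2.05, adjusted p = 0.000137) and rose into DTEP (log2 change 1.84, adjusted p = 0.000133), as SPRED1 and SPRED2 did. In LR against Control, NF1 did not pass the test (log2 difference 0.26, adjusted p = 0.447), where both SPRED genes were higher. DET1, a part of the ubiquitin ligase that degrades ETV proteins, fell into DTEP (log2 change -2.60, adjusted p = 3.96e-07), as did SIAH2, a ligase for Sprouty (log2 change -2.37, adjusted p = 1.53e-05). CAV1, encoding caveolin, was at 2.31, 51.6, 3.38 and 0.0141 normalised read counts, opposite in direction to SPRED1 in the steps to DTP and DTEP. Its DTEP libraries differed widely, at 7.22, 2.80 and 0.112. In DTEP against Control, CAV1 did not pass the test (log2 difference -0.0148, adjusted p = 0.982), where SPRED1 was higher. The Capicua gene CIC, whose product binds the octamer found at ETV1, fell into DTP (log2 change -0.58, adjusted p = 0.0265) and rose into DTEP (log2 change 1.17, adjusted p = 0.000208).

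Relatives of the members by family were tested for 11 of 12 genes. From Control to DTP 2 rose and 2 fell, from DTP to DTEP 6 rose and 3 fell, and from DTEP to LR 1 rose. The remaining Sprouty gene, SPRY3, averaged 1.69, 1.01, 3.71 and 9.91 normalised read counts in the 4 groups and was the relative that rose from DTEP to LR (log2 change 1.30, adjusted p = 0.0183). SPRED3 ran opposite in sign to SPRED1 and SPRED2. It averaged 14.6, 22.0, 6.32 and 7.34 normalised read counts, higher in DTP than in Control (log2 change 0.57, adjusted p = 0.0209) and lower in DTEP than in DTP (log2 change -1.65, adjusted p = 7.36e-06). It was also lower in LR than in Control (log2 change -0.91, adjusted p = 0.00099). PHLDA2 rose into DTEP (log2 change 2.68, adjusted p = 0.000543) and PHLDA3 fell (log2 change -3.86, adjusted p = 1.38e-06). The ETS gene ELK4 fell into DTP by 1.27 (log2 change -1.27, adjusted p = 0.000659) and rose into DTEP (log2 change 2.68, adjusted p = 8.40e-07).

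Genes within 500 kb of the members were compared in the same way, for the 13379 of 13794 tested genes that have RefSeq coordinates. SPRY2 and ETV1 had no tested neighbour in that distance. Around SPRY4, 6 neighbours had a median log2 change of 0.06 into DTP and 0.29 into DTEP, and around ETV4 13 neighbours had 0.30 and -0.81, the opposite signs to ETV4 itself. The 4 neighbours of SPRED2 had medians of -0.85 and 0.82, the same signs as SPRED2 at a smaller size, and the 5 neighbours of ETV5 had -0.25 and 0.56, also the signs of ETV5. The neighbour of SPRY1, SPATA5, had a log2 change of -0.95 into DTP and of 2.17 into DTEP, where SPRY1 had 3.52. The 3 neighbours of PHLDA1 had medians of -0.79 and -0.25, and the 24 neighbours of IER3 of 0.40 and 0.01. Of the 2 neighbours of SPRED1, 1 was higher and 1 lower in each of these steps. Within 1000 kb the medians around SPRY4, ETV4, SPRED2 and ETV5 kept their signs in both steps. Other signs turned on the window. At 1000 kb the median around SPRY1 was 0.605 into DTP (3 genes), and into DTEP it was 0.214 around PHLDA1 (8 genes) and -0.33 around IER3 (51 genes).

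The luminal identity of the cultures was read from 8 markers, all of which were above 1 in every Control and DTP library. Their summed level was 10060 to 10840 normalised read counts in Control and 13280 to 16180 in DTP. It was 4242 to 6271 in DTEP and 4089 to 5472 in LR, with ERBB2 as the most abundant marker. By gene, 6 of the 8 markers fell and 2 rose (GATA3 and EPCAM) from DTP to DTEP, the step in which SPRY and SPRED members rose. The estrogen receptor gene ESR1 averaged 151, 105, 8.14 and 0.153 in the 4 groups, and ERBB2, which encodes HER2, 6526, 8545, 1627 and 1774. The luminal transcription factor gene GATA3 averaged 190, 454, 1160 and 1251, higher in DTEP than in Control (log2 change 2.59, adjusted p = 3.26e-07), and EPCAM rose from DTP to DTEP (log2 change 1.19, adjusted p = 1.47e-05). The 9 markers of other cell types summed to 118.8 to 130.2 normalised read counts in Control, and to ranges of 140.6 to 158.3, 93.9 to 128.7 and 99.5 to 132.0 in the later groups. COL1A1 and, in Control and DTP, VIM made up most of that sum. CD3E had 0 reads in all libraries, and PTPRC and PECAM1 averaged at most 0.118. The leukocyte marker CD68 averaged 1.76, 2.38, 2.88 and 1.17 in the 4 groups. The endothelial marker VWF averaged 8.09, 2.10, 0.211 and 0.118. The part of these changes in the results for the members was not tested.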

How the data were processed

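The 12 libraries of BT474 mRNA were assigned to Control, DTP, DTEP and LR, 3 to each, by their labels, which give no batch or date. Per the methods, the authors sequenced stranded libraries, and Rsubread mapped reads to hg38 and counted them per RefSeq gene at default settings, which do not use strand. The deposited table holds a normalised signal for each gene and library. Each of its 199680 entries above 0 was a whole number of times the lowest entry in that library (largest distance from a whole read 1.2e-09), so reads were recovered, at 16383363 to 25030482 per library. The scale is reads per total adjusted by edgeR's TMM factor. Among the 26485 rows, 1016 had no symbol.

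Values were tested as log2(value + 1) with limma 3.58.1 (R 4.3.3), the study's tool, in a model over all 12 libraries with a variance trend. The 13794 genes that reached 1 in 3 or more libraries entered the fit. Two-sided p-values were adjusted by Benjamini-Hochberg over all genes of each of 6 comparisons. "Rose" and "fell" mean an adjusted p below 0.05, and the stricter threshold adds an absolute log2 change above 2. Log2 changes understate the change of low genes. Fold values are ratios of mean values, taken against a floor of 3 reads where a group had 0 reads.

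The members and the lists were chosen with earlier results of these data known. All members were named, as were the listed genes past the stricter threshold in a successive transition and, for members past it, the 3 genes of nearest profile. Other listed genes (CIC, SPRY3, SPRED3 and the markers) were named after their values were seen. Same-numbered libraries did not deviate together in every pair (r of -0.441 to 0.359 across genes), so the numbers were not taken to pair them. COP1 was matched under its older symbol.

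The alternatives were pseudocounts of 0.1 and 0.5, a filter at a mean of 5 or none, no variance trend, only the 6 libraries compared, TMM or median-of-ratios rescaling, a replicate block, edgeR 4.0.16 and DESeq2 1.42.0 run on reads, an absolute log2 threshold of 1, neighbour windows of other widths and the omission of each library in turn. The limma, edgeR and DESeq2 fits and the recovery of reads were first tested on simulated reads. The simulated spread was equal in all groups, unlike that of these libraries, and the other steps were not tested in this way.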

Additional observations from a re-analysis of the deposited data

How the results depend on the processing

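Over all members, comparisons and alternatives, 1264 values kept their direction and their side of the threshold, 28 passed it newly, 53 no longer passed it and 5 changed sign. A filter at a mean of 5 left out SPRY2, ETV1, ETV4, ETV5 and PHLDA1, so that the counts became 3 lower and 3 past the stricter threshold (DTP against Control), 5 higher (DTEP against DTP) and 0 lower (DTEP or LR against Control, LR against DTP). With only the 6 libraries compared, 1 member was higher in DTP than in Control. DESeq2 called 1 member higher in LR than in DTEP. An absolute log2 threshold of 1 gave 8 members in DTEP against DTP. The share of all genes was not counted at that threshold or for the other alternatives, so these counts are not read as a result about the members. The count lower in DTEP than in Control was 0 with a pseudocount of 0.1 and with edgeR, and 1 with no filter, with only the 6 libraries and with DESeq2. When single libraries were left out, the counts ranged from 0 to 1 higher (DTP against Control), from 5 to 9 higher and 0 to 1 lower (DTEP against DTP), from 0 to 1 higher and 0 to 4 lower (LR against DTEP) and from 1 to 2 lower (DTEP against Control). DTEP replicate 3 gave the highest of these ranges for LR against DTEP, and DTEP replicate 2 the lowest, 5, for DTEP against DTP. The log2 values that changed sign did so in this way too, ranging from -0.0605 to 0.50 for SPRY2 (LR against DTEP), from -1.60 to 0.10 for ETV4 (LR against DTEP), from -1.37 to 0.33 for ETV4 (DTEP against Control), from -0.27 to 0.64 for ETV1 (LR against Control) and from -0.0626 to 1.04 for ETV5 (LR against DTP). None of these 5 changes passed the test with all libraries, and the cause was not tested. The replicate block altered 1 call, ETV4 in LR against DTP (log2 change 1.70, adjusted p = 0.0515, against 0.0373 without it), and the numbers were not taken to pair the libraries. Rescaling by median-of-ratios moved the median of all genes by -0.10 to 0.04 (log2). Depth limits ETV1, ETV4 and ETV5 in DTP, which rest on 0 to 6 reads per library.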
